A study of Mus musculus with 9 samples.

Results

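Genes of MAPK feedback and of the immediate early response were followed in RAW 264.7 macrophages exposed to triglyceride-rich emulsion particles. These were the dual-specificity phosphatase genes *Dusp1*, *Dusp2*, *Dusp4*, *Dusp5* and *Dusp6*, the inhibitor genes *Spry2* and *Spred1*, and the immediate early genes *Egr1*, *Ier2* and *Ier3*. They were listed by gene symbol, with earlier results of these data known, and make up 10 of the 54432 gene identifiers in the table. All 10 were above the limit on low counts (more than 10 counts in at least 3 libraries) and were therefore among the 12637 genes tested. RAW 264.7 is a macrophage-like mouse cell line. RNA sequencing was performed on 9 libraries, 3 from untreated control cells, 3 from cells given VLDL-sized emulsion particles (VLDLsep) and 3 from cells given chylomicron-sized (CHYL-sized) emulsion particles (CHYLsep), both at 1 mM for 6 hours. The particles were made from sunflower oil with sodium caseinate as emulsifier, and the control cells received neither, so that the lipid, the emulsifier and the particle itself cannot be told apart in these comparisons. The methods give 1 mM for both particles, while a supplementary figure legend gives a lower dose for the CHYL-sized expression data. The methods also describe a pooling of the samples that received the same treatment within an experiment. Each library is therefore 1 pool of cultured cells, and the p-values measure only the spread between these pools.

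Mitogen-activated protein kinases (MAPKs) carry signals from receptors at the cell surface and from cell stress to the nucleus. The 3 best known branches end in ERK, p38 and JNK. Signalling along them switches on immediate early genes, which need no new protein synthesis for their transcription and many of which encode transcription factors. The same signals switch on genes whose products turn the pathway off again. Dual-specificity phosphatases remove the phosphates that activate MAPKs, and Sprouty and Spred proteins act higher up, near the receptor and RAS. In macrophages this feedback is known for limiting the length of the response to bacterial products and growth factors. RNA levels report the transcripts of these genes and not the activity of the kinases, which was not measured.

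Promoter sequences were printed for 3 of the genes that the results turned on, to show the sequence context of a pair of phosphatase genes that rose (*Dusp1*, *Dusp5*) and of one that fell with VLDL-sized particles (*Dusp6*). The sequences are those of RefSeq on the mouse build GRCm38.p6 and exclude annotated exons. In the reference used, 7 of the 10 genes had a usable entry, that is, a full window of 300 bases. *Dusp4*, *Egr1* and *Ier2* had no usable entry there. The stretch of *Dusp1* is on the minus strand at chr17:26508520-26508722, that of *Dusp5* on the plus strand at chr19:53528895-53529108 and that of *Dusp6* on the plus strand at chr10:99262981-99263230. Each is written 5′ to 3′ on the strand of its gene, and capitals mark the matches to the motifs searched.
Dusp1: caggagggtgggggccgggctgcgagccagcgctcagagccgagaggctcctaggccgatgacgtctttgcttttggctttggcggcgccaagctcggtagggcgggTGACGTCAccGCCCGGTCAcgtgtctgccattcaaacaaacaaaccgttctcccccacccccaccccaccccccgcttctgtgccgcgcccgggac
Dusp5: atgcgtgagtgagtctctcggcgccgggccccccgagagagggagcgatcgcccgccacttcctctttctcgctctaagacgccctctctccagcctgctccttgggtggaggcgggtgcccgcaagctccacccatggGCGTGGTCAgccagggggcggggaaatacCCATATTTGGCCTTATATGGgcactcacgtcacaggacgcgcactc
Dusp6: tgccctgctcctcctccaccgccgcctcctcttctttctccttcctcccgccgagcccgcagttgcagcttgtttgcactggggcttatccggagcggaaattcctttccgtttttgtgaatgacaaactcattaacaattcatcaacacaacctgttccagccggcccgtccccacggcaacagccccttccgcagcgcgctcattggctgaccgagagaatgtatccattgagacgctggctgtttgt
The search for 7 motifs covered both strands of windows of 300 bases, from 250 bases before to 50 after each RefSeq start. The motifs were the cAMP response element (CRE, TGACGTCA), the SRF CArG box, the AP-1 site (TGANTCA), the EGR site (GCGNGGGCG), the ETS site (CCGGAAGT), the NRF2 antioxidant response element (TGACNNNGC) and the ATF4 and C/EBP composite site (TGATGNAAT). The AP-1 and NRF2 motifs can overlap. In *Dusp1* the CRE matched at position -143 from the start, and the NRF2 motif matched on the other strand as GCCCGGTCA at -133. In *Dusp5* the CArG box matched side by side as CCATATTTGG at -82 and CCTTATATGG at -72, and the NRF2 motif matched on the other strand as GCGTGGTCA at -111. Of 32851 windows in the reference table, 1.79% held the CRE, 1.63% a CArG box and 12.4% the NRF2 motif. *Dusp2* had 1 match to the EGR motif, which 5.55% of windows held. The windows of *Dusp6*, *Spry2*, *Spred1* and *Ier3* held none of the motifs, which had shares of 7.81% for AP-1, 3.89% for ETS and 0.965% for the ATF4 and C/EBP site. A match describes letters in a window, and binding was not measured.

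The depth of the libraries was nearly equal, with totals of 22393893 to 22856792 estimated counts. Levels are given as cpm (counts scaled to a common library size) after TMM normalization, on which 10 counts corresponded to 0.421 to 0.456 cpm. The macrophage markers *Csf1r*, *Cd68*, *Lyz2*, *Itgam*, *Ptprc*, *Spi1* and *Adgre1* were all present, the lowest being *Adgre1* at 16.1 to 25.4 cpm. After VLDL-sized particles 1 of these 7 was higher and 4 were lower, with log2 fold changes between -0.31 and 0.17 for the 7, and after CHYL-sized particles 1 was lower. Of all genes tested, 17.8% were called higher and 17.9% lower after VLDL-sized particles, and 12.7% and 13% after CHYL-sized particles. Of 7 markers of other cell types, 5 were below the limit on low counts, and *Pecam1* and *S100a8* stayed at or below 0.772 and 2.02 cpm without passing the test. A change in transcripts per cell and a change in the make-up of the culture cannot be told apart in bulk RNA. In each of the 3 groups, the library of replicate 3 stood apart from replicates 1 and 2, on the second principal component of all genes tested. This touched the 10 genes directly. Replicate 3 was the highest library of all 3 groups for *Dusp1*, *Dusp4* and *Dusp5*, and the lowest of all 3 groups for *Dusp6*, *Spred1*, *Egr1* and *Ier2*, that is, 3 and 4 of the 10 genes against 18.8% and 19.2% of all genes tested. What sets replicate 3 apart is not given in the sources used here.

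In control cells the levels spanned a wide range. Per kilobase of transcript, *Dusp4* was the most abundant at 71.3 cpm per kb, followed by *Spred1* (63.5), *Dusp6* (34.8), *Ier2* (14.0), *Dusp1* (12.0), *Spry2* (7.42), *Dusp5* (3.01), *Ier3* (2.98), *Dusp2* (1.18) and *Egr1* (0.524 cpm per kb). The libraries of neighbours in this order overlapped for *Ier2* and *Dusp1* and for *Dusp5* and *Ier3*, and for no other neighbours. After VLDL-sized particles *Dusp1* stood at 54.1 cpm per kb, second to *Dusp4* (108) and above *Spred1* (42.5), with no overlap on either side. With CHYL-sized particles *Spred1* (47.6 cpm per kb) and *Dusp1* (38.6) were the second and the third, and their libraries overlapped.

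**Figure D1:**
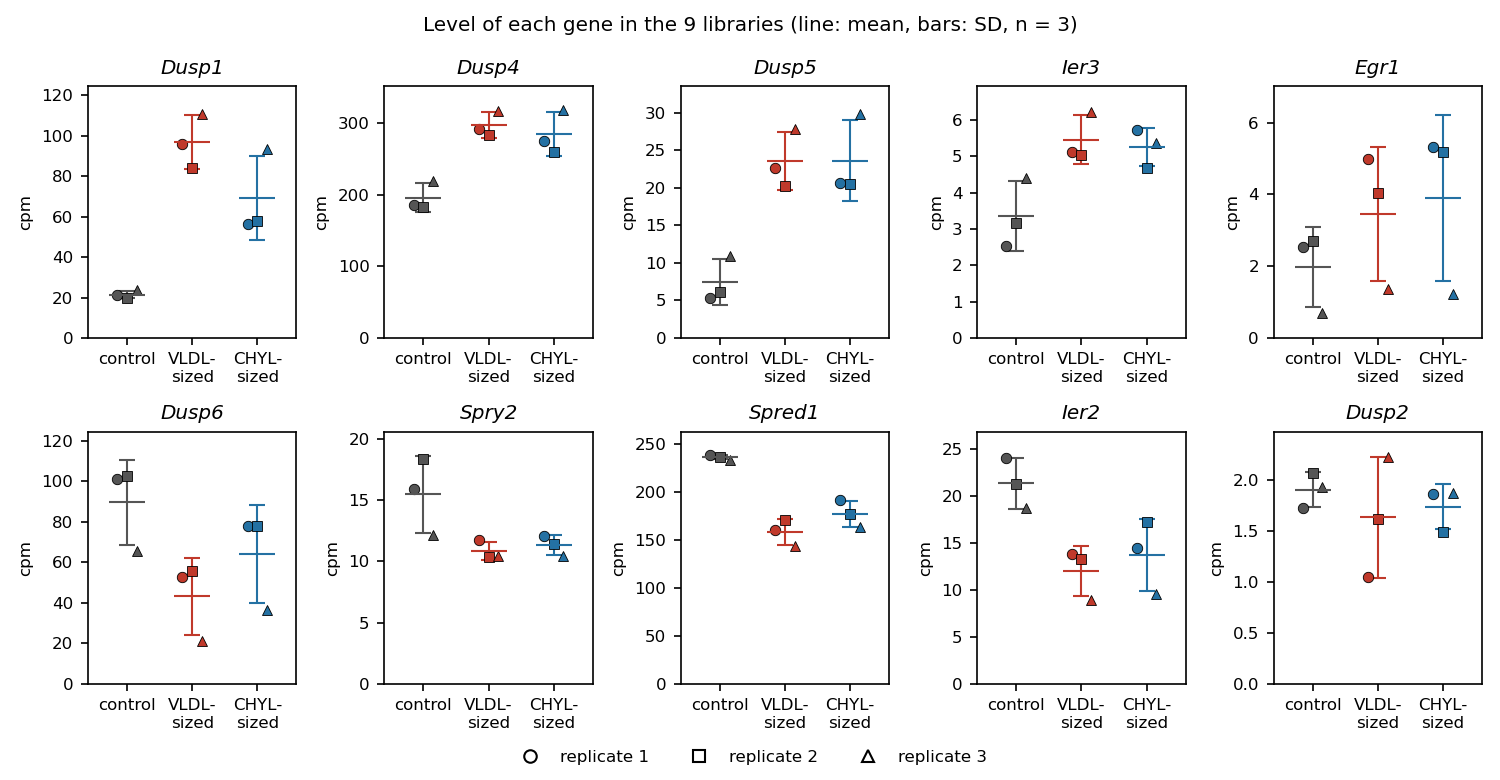
Level of each of the 10 genes in cpm (vertical axes, linear and from 0) in the control, VLDL-sized and CHYL-sized groups. Points are libraries with a shape for each replicate number, the long line is the mean and the bars are the SD (n = 3). In *Dusp1* the control libraries lie between 19.8 and 23.6 cpm and all treated libraries at 56.5 cpm or above, whereas in *Egr1* the replicate 3 library lies far below the others in every group.

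Compared with control, 8 of the 10 genes passed the test after VLDL-sized emulsion particles (4 rose, 4 fell) and 7 after CHYL-sized emulsion particles (4 rose, 3 fell). *Dusp1*, *Dusp4*, *Dusp5* and *Ier3* rose with both particles. *Spry2*, *Spred1* and *Ier2* fell with both particles, and *Dusp6* fell with VLDL-sized particles. *Egr1* and *Dusp2* did not pass with either particle in this fit, which has no replicate block. With the replicate number as a block, 9 of the 10 genes passed with each particle. *Egr1* then passed with both particles, and *Dusp6* also with CHYL-sized particles. The test was limma-voom over all genes with Benjamini-Hochberg adjustment and an adjusted p under 0.05, and both comparisons share the same 3 control libraries. Over all genes tested, 17.8% were called higher and 17.9% lower after VLDL-sized particles, and 12.7% and 13% after CHYL-sized particles. The genes that passed were also those whose 3 treated libraries did not overlap the 3 control libraries. Without overlap, 23.7% of all genes were higher and 23.7% lower after VLDL-sized particles, and 20.8% and 20.9% after CHYL-sized particles. Without control replicate 1 the test called 5 and 4 of the 10 genes for VLDL-sized and CHYL-sized particles, and without control replicate 2 it called 6 and 4. It called 4 for CHYL-sized particles without CHYL-sized replicate 1 or 3. The median log2 fold change over the 10 genes was 0.16 after VLDL-sized and 0.20 after CHYL-sized particles, in each case with 5 positive and 5 negative values, beside medians of -0.00028 and 0.0013 over all genes.

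*Dusp1* encodes a nuclear phosphatase, also called MKP-1, that acts on p38, JNK and ERK and is known in macrophages for its fast induction. The gene (ENSMUSG00000024190) lies on chromosome 17 from 26505590 to 26562128 in GRCm38. In control cells the 3 libraries had 21.1, 19.8 and 23.6 cpm. After VLDL-sized particles they had 96.2, 84.1 and 111 cpm, and after CHYL-sized particles 56.5, 57.9 and 93.5 cpm. All 6 treated libraries were thus above all control libraries, and the third CHYL-sized library lay within the range of the VLDL-sized libraries. The mean was 21.5 ± 1.96 cpm in control cells, 97.0 ± 13.4 cpm after VLDL-sized and 69.3 ± 20.9 cpm after CHYL-sized particles (SD, n = 3). On the log2 scale *Dusp1* changed by 2.17 with VLDL-sized particles (SE 0.20, adjusted p = 1.9e-05, 4.50-fold) and by 1.65 with CHYL-sized particles (SE 0.20, adjusted p = 2.2e-04, 3.14-fold). SE is the standard error of the log2 fold change. *Dusp1* had the largest rise of the 10 genes with VLDL-sized particles. The annotated span includes the RefSeq start used above and overlaps 4 other genes, 2 of them on the opposite strand, and whether the counting used strand was not given in the sources used here. One of these on the opposite strand, *Ergic1*, had 3300.001 to 3639.999 counts in a library, more than the 469 to 2437 counts of *Dusp1*, and did not pass with VLDL-sized (log2 fold change 0.10, adjusted p = 0.19) or CHYL-sized particles (0.09, adjusted p = 0.28). The other 3 had at most 3.33 counts in a library.

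*Dusp5* encodes a nuclear phosphatase specific for ERK (ENSMUSG00000034765, chromosome 19 from 53529109 to 53542431). The control libraries had 5.30, 6.11 and 11.0 cpm. With VLDL-sized particles the values were 22.6, 20.3 and 27.9 cpm, and with CHYL-sized particles 20.6, 20.5 and 29.8 cpm. The lowest treated library was above the highest control library, and replicate 3 was the highest in each group. *Dusp5* rose from 7.45 ± 3.06 cpm to 23.6 ± 3.90 and 23.6 ± 5.35 cpm (SD, n = 3). Its log2 fold change was 1.72 with both VLDL-sized (SE 0.25, adjusted p = 4.3e-04) and CHYL-sized particles (SE 0.25, adjusted p = 7.2e-04). Within replicate numbers, the ratio to control was 4.27, 3.32 and 2.54 for VLDL-sized and 3.90, 3.35 and 2.72 for CHYL-sized particles. An antisense gene overlaps *Dusp5* and had at most 2.39 counts in a library.

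*Dusp4* encodes another inducible nuclear phosphatase, also called MKP-2 (ENSMUSG00000031530, chromosome 8 from 34807297 to 34819894). It was already the most abundant of the 10 transcripts per kilobase in control cells. Its level was 185, 182 and 219 cpm in control cells, 291, 283 and 317 cpm after VLDL-sized and 275, 260.2 and 318 cpm after CHYL-sized particles. Every treated library was above every control library, although by less than for *Dusp1* and *Dusp5*. The means were 195 ± 20.2, 297 ± 18.0 and 284 ± 30.3 cpm (SD, n = 3). *Dusp4* rose by 0.61 on the log2 scale for VLDL-sized (SE 0.09, adjusted p = 4.3e-04) and 0.54 for CHYL-sized particles (SE 0.09, adjusted p = 0.0014). *Dusp1*, *Dusp4* and *Dusp5* kept their calls with both particles in all 20 alternative settings, which included leaving out each library in turn.

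*Dusp2* (ENSMUSG00000027368, chromosome 2 from 127336159 to 127338376), also called PAC-1, encodes a nuclear phosphatase that is typical of activated immune cells. It was near the lower end of what could be measured, with 23 to 49 counts in a library. The control libraries had 1.72, 2.06 and 1.93 cpm, the VLDL-sized libraries 1.05, 1.62 and 2.23 cpm and the CHYL-sized libraries 1.86, 1.49 and 1.87 cpm. The 3 groups overlapped. The log2 fold change was -0.28 with VLDL-sized particles (95% CI -0.84 to 0.28, adjusted p = 0.43) and -0.13 with CHYL-sized particles (95% CI -0.68 to 0.41, adjusted p = 0.74), so that a rise of the size seen for *Dusp1* or *Dusp5* lay outside both intervals.

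*Dusp6* (ENSMUSG00000019960, chromosome 10 from 99263231 to 99267489), also called MKP-3, differs from the other phosphatases in that its product resides in the cytoplasm and acts on ERK. Its transcript is widely used as a readout of ERK output. The control libraries had 101, 102 and 65.5 cpm, the VLDL-sized libraries 52.9, 55.6 and 21.4 cpm and the CHYL-sized libraries 78.0, 78.2 and 36.3 cpm. Replicate 3 was the lowest in each group, and the CHYL-sized libraries of replicates 1 and 2 were above the control library of replicate 3. Means were 89.7 ± 21.0, 43.3 ± 19.0 and 64.1 ± 24.1 cpm (SD, n = 3). *Dusp6* fell with VLDL-sized particles by 1.14 on the log2 scale (SE 0.38, adjusted p = 0.036, 2.21-fold lower), while CHYL-sized particles gave a log2 fold change of -0.54 (95% CI -1.32 to 0.25, adjusted p = 0.31). The direction of *Dusp6* was thus opposite to that of *Dusp1*, *Dusp4* and *Dusp5* in the same libraries. The VLDL-sized call was lost with DESeq2 (adjusted p = 0.066) and without control replicate 1 (adjusted p = 0.10), control replicate 2 (adjusted p = 0.099) or VLDL-sized replicate 3, where the log2 fold change was -0.70 (adjusted p = 0.11). Within replicate numbers, the ratio to control was 0.522, 0.542 and 0.327 for VLDL-sized and 0.770, 0.763 and 0.554 for CHYL-sized particles, all below 1. With all 3 libraries of replicate 3 left out, *Dusp6* was lower with CHYL-sized particles too, by -0.38 on the log2 scale (adjusted p = 3.7e-05).

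*Spred1* encodes a membrane protein that recruits the RAS-inactivating protein neurofibromin and so limits signalling through RAS (ENSMUSG00000027351, chromosome 2 from 117121374 to 117182279). Its control libraries were close together at 239, 237 and 234 cpm. The VLDL-sized libraries had 160.2, 171 and 144 cpm and the CHYL-sized libraries 192, 177 and 164 cpm. No treated library reached the lowest control library, and the control libraries varied by 0.972% of their mean, the least of the 10 genes. Means were 237 ± 2.30, 159 ± 13.4 and 178 ± 13.9 cpm (SD, n = 3). The log2 fold change was -0.58 for VLDL-sized (SE 0.07, adjusted p = 1.3e-04) and -0.42 for CHYL-sized particles (SE 0.07, adjusted p = 0.0016), and both calls held in all 20 alternative settings.

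*Spry2* encodes Sprouty 2, an inhibitor that is itself induced by growth factors and acts downstream of receptor tyrosine kinases (ENSMUSG00000022114, chromosome 14 from 105891947 to 105896819). Control libraries had 15.9, 18.4 and 12.1 cpm. With VLDL-sized particles *Spry2* was at 11.7, 10.4 and 10.5 cpm and with CHYL-sized particles at 12.1, 11.4 and 10.4 cpm. The groups did not overlap, but the highest CHYL-sized library, 12.09 cpm, was only just below the lowest control library, 12.13 cpm. From a mean of 15.5 ± 3.14 cpm, *Spry2* fell to 10.9 ± 0.756 and 11.3 ± 0.831 cpm (SD, n = 3). Its log2 fold change was -0.49 with VLDL-sized (SE 0.14, adjusted p = 0.022) and -0.43 with CHYL-sized particles (SE 0.14, adjusted p = 0.048). The VLDL-sized call was lost without control replicate 1 (adjusted p = 0.065), control replicate 2 (0.069), VLDL-sized replicate 2 (0.072) or VLDL-sized replicate 3 (0.057), and the CHYL-sized call in 10 of 20 alternative settings (adjusted p up to 0.15).

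The immediate early genes did not move together. *Ier3*, a gene induced by stress and by NF-kB that affects cell survival (ENSMUSG00000003541, chromosome 17 from 35821684 to 35822923), had 2.52, 3.16 and 4.42 cpm in control cells. It had 5.11, 5.03 and 6.23 cpm after VLDL-sized and 5.71, 4.68 and 5.38 cpm after CHYL-sized particles. The lowest treated library, 4.68 cpm, was just above the highest control library. *Ier3* rose from 3.37 ± 0.963 cpm to 5.46 ± 0.672 and 5.26 ± 0.528 cpm (SD, n = 3). The log2 fold change was 0.73 for VLDL-sized (SE 0.19, adjusted p = 0.013) and 0.68 for CHYL-sized particles (SE 0.19, adjusted p = 0.026). The VLDL-sized call was lost without control replicate 1 (adjusted p = 0.061). The CHYL-sized call was lost without control replicate 1 (0.11), control replicate 2 (0.079), CHYL-sized replicate 1 (0.085) or CHYL-sized replicate 3 (0.060).

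*Ier2*, which encodes a nuclear protein of the early growth factor response (ENSMUSG00000053560, chromosome 8 from 84661331 to 84662852), went the other way. The control libraries had 24.1, 21.3 and 18.7 cpm, the VLDL-sized libraries 13.8, 13.3 and 8.96 cpm and the CHYL-sized libraries 14.5, 17.2 and 9.58 cpm. All treated libraries were below all control libraries. *Ier2* fell from 21.4 ± 2.70 cpm to 12.0 ± 2.67 and 13.8 ± 3.86 cpm (SD, n = 3). The log2 fold change was -0.85 for VLDL-sized (SE 0.21, adjusted p = 0.0091) and -0.67 for CHYL-sized particles (SE 0.20, adjusted p = 0.033). The CHYL-sized call was lost without control replicate 1 (adjusted p = 0.11), control replicate 2 (0.075), CHYL-sized replicate 1 (0.062) or CHYL-sized replicate 3 (0.0997, log2 fold change -0.43), whereas the VLDL-sized call held in all 20 alternative settings.

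*Egr1* encodes a zinc finger transcription factor that is induced within minutes by ERK and SRF (ENSMUSG00000038418, chromosome 18 from 34859823 to 34864984), and it was the lowest of the 10 genes per kilobase in control cells. The control libraries had 2.52, 2.70 and 0.686 cpm, which corresponded to 60, 64 and 16 counts. The VLDL-sized libraries had 4.97, 4.04 and 1.37 cpm and the CHYL-sized libraries 5.32, 5.18 and 1.23 cpm. The libraries of replicates 1 and 2 were higher in both treated groups than in control, and so was that of replicate 3, but replicate 3 was lower than the mean of the other two by 3.81-fold in control, 3.30-fold after VLDL-sized and 4.26-fold after CHYL-sized particles. Within replicate numbers, the ratio to control was 1.97, 1.50 and 1.99 for VLDL-sized and 2.11, 1.92 and 1.80 for CHYL-sized particles. Across the 3 libraries the means were 1.97 ± 1.11, 3.46 ± 1.87 and 3.91 ± 2.32 cpm (SD, n = 3), so that the groups overlapped widely. *Egr1* had a log2 fold change of 0.84 with VLDL-sized (95% CI -0.80 to 2.47, adjusted p = 0.42) and of 0.95 with CHYL-sized particles (95% CI -0.67 to 2.56, adjusted p = 0.38). With the replicate number as a block, the VLDL-sized value was 0.81 and passed (adjusted p = 7.6e-04). With all 3 libraries of replicate 3 left out it was 0.78 (adjusted p = 0.0037), and that of CHYL-sized particles was 1.00 (adjusted p = 6.4e-04).

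**Figure D2:**
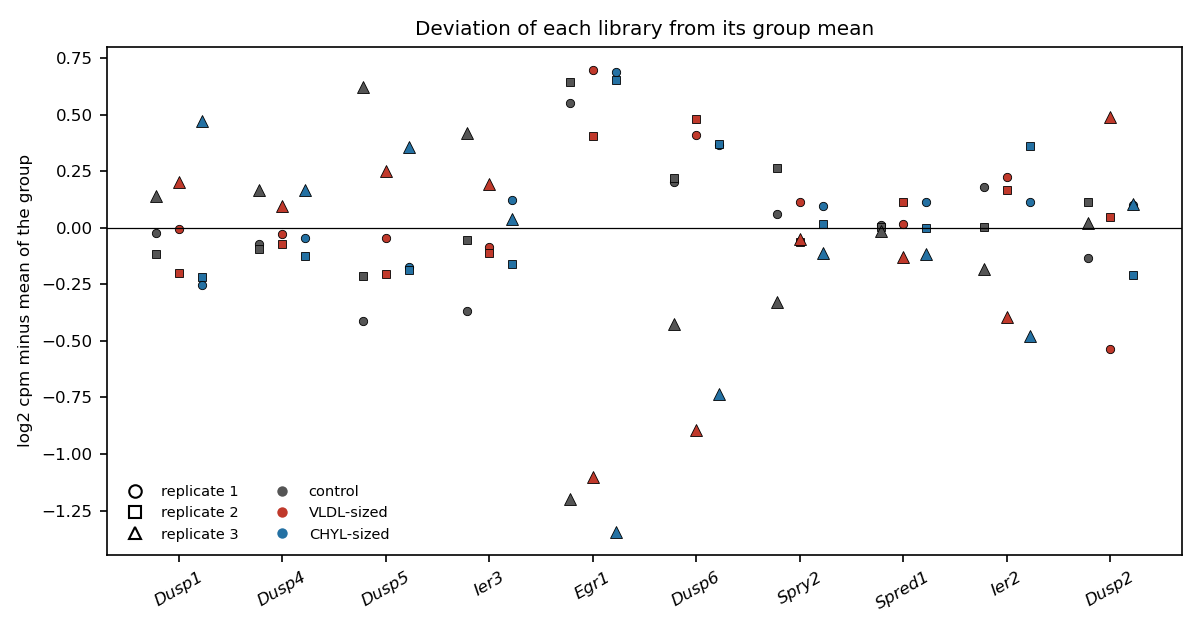
Deviation of each library from the mean of its group, in log2 cpm (vertical axis), for the 10 genes (horizontal axis), with colour for the group and shape for the replicate number. The triangles of replicate 3 lie at -1.20, -1.10 and -1.34 for *Egr1* and at -0.42, -0.89 and -0.74 for *Dusp6*, and above 0 in all 3 groups for *Dusp1*, *Dusp4* and *Dusp5*.

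**Figure D3:**
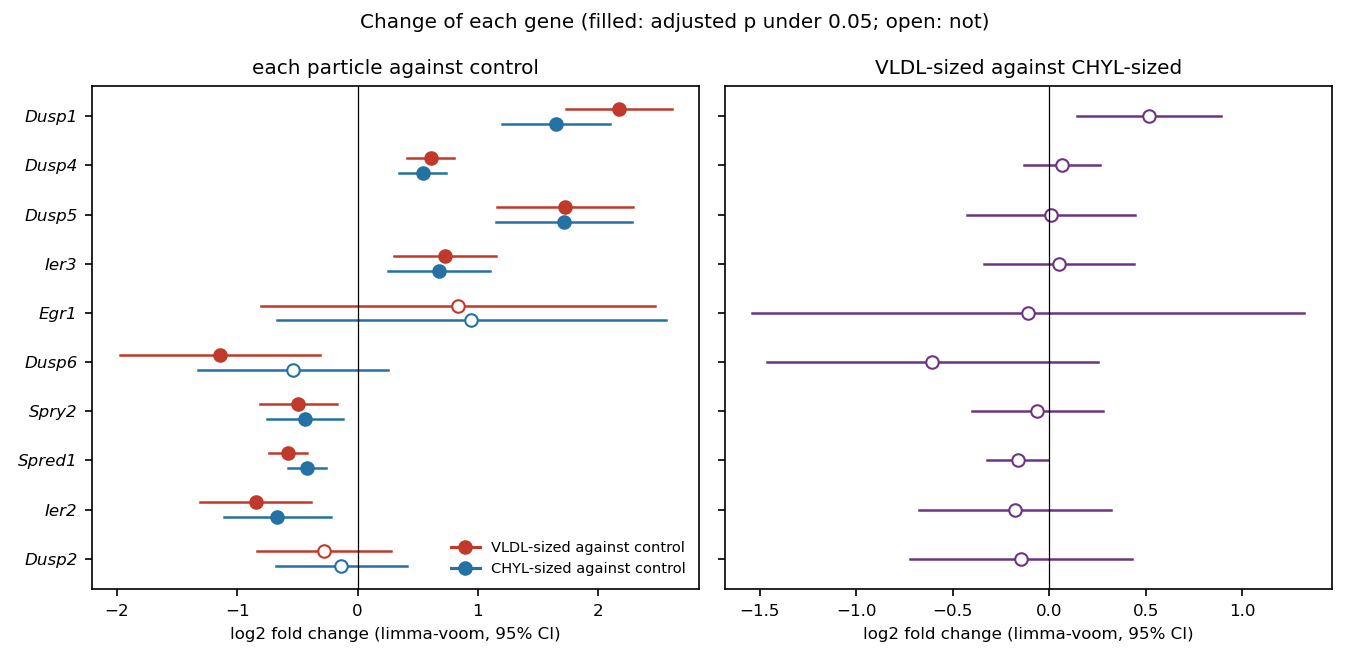
Log2 fold change of each gene (horizontal axes, limma-voom, points with 95% CI), against control for both particles on the left and between the particles on the right, with filled points at an adjusted p under 0.05. On the left *Dusp1*, *Dusp4*, *Dusp5* and *Ier3* lie to the right of 0 and *Spry2*, *Spred1* and *Ier2* to the left with both particles. On the right no point is filled.

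The VLDL-sized and CHYL-sized preparations were compared directly. None of the 10 genes passed, and 0% of all genes tested did, as 0 of 12637 genes had an adjusted p under 0.05 with limma-voom or with edgeR, while 813 had an unadjusted p under 0.05 and DESeq2 called 24. Among the 10 genes, *Dusp1* and *Spred1* had an unadjusted p under 0.05, and edgeR and DESeq2 called 0. Both counts, over all genes and among the 10, depended on how the replicates were treated. A fit blocked on replicate number called 147 genes, among them *Dusp1* (0.51, adjusted p = 0.028) and *Dusp6* (-0.58, adjusted p = 0.033). With all 3 libraries of replicate 3 left out, 257 were called. Deviations from the group means correlated between these groups at 0.029, 0.12 and 0.36 for replicates 1, 2 and 3. By a limit of 0.1 the numbers did not all qualify as pairs, although replicate 3 had the highest correlation. An unmatched pair, VLDL-sized 1 with CHYL-sized 2, also passed this limit at 0.18. The largest differences among the 10 genes were those of *Dusp6* and *Dusp1*. On the log2 scale, the VLDL-sized minus CHYL-sized difference of *Dusp1* was 0.52 (95% CI 0.15 to 0.89, adjusted p = 0.63), and the VLDL-sized level was 1.70, 1.45 and 1.19 times the CHYL-sized level in replicates 1, 2 and 3. *Dusp6* had -0.61 (95% CI -1.46 to 0.25, adjusted p = 0.85), with ratios of 0.678, 0.711 and 0.589. *Spred1* had -0.16 (95% CI -0.32 to -0.0056, adjusted p = 0.77). Without replicate 3, *Dusp1* (0.65) and *Dusp6* (-0.53) passed, both with an adjusted p of 2.5e-04. The intervals of *Dusp4* (-0.13 to 0.26) and *Dusp5* (-0.43 to 0.44) leave room only for differences below their fitted changes against control. Those of *Ier3* (-0.34 to 0.44) and *Spry2* (-0.40 to 0.28) do so too. For *Spry2* the margin was small, as its change with CHYL-sized particles was -0.43. The intervals of *Ier2* (-0.68 to 0.32), *Dusp2* (-0.72 to 0.43) and *Egr1* (-1.54 to 1.32) reached past the fitted change with 1 particle or both.

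Other genes of the pathway were read from the same fit in 6 lists written from general knowledge. Their counts stand beside 17.8% of all genes tested called higher and 17.9% lower after VLDL-sized particles, and 12.7% and 13% after CHYL-sized particles, and several of them are near these shares. Of 8 further dual-specificity phosphatase genes, 7 were tested, of which 2 were higher and 4 lower after VLDL-sized particles (median log2 fold change -0.27) and 4 passed, each of them lower, after CHYL-sized particles (median -0.18). *Dusp7* is a close relative of *Dusp6*, with a product that also acts on ERK in the cytoplasm. It had 50.6, 43.1 and 33.4 cpm in control cells, against 22.7, 20.4 and 12.4 cpm with VLDL-sized particles. It fell with VLDL-sized (log2 fold change -1.22, adjusted p = 0.0037) and CHYL-sized particles (-0.87, adjusted p = 0.023). *Dusp3* (-0.27, adjusted p = 0.0030) and *Dusp22* (-0.44, adjusted p = 0.0030) also fell with VLDL-sized particles. With CHYL-sized particles *Dusp3* (-0.18, adjusted p = 0.029) and *Dusp22* (-0.33, adjusted p = 0.018) fell as well. The 2 that were higher after VLDL-sized particles were *Dusp8* (0.51, adjusted p = 0.026) and *Dusp9* (0.38, adjusted p = 0.038). Of 10 other feedback inhibitors, 8 were tested, with 1 higher and 2 lower after VLDL-sized (median 0.14) and 2 that passed, each of them lower, after CHYL-sized particles (median 0.08). *Spry1*, the relative of *Spry2*, was low, with 0.686 to 0.969 cpm in control and 0.135 to 0.364 cpm after VLDL-sized particles (log2 fold change -1.87). It exceeded 10 counts only in control libraries and so entered the test through the group difference itself. Its call is therefore not taken as support, although *Spry1* is among the 2 genes counted as lower for each particle. With a limit of 50 counts it was not tested, and 1 of 7 genes was lower after each particle. *Rasa1*, a RAS-inactivating protein, fell (-0.33, adjusted p = 3.9e-04), and *Cbl*, a ubiquitin ligase for receptors, rose (0.23, adjusted p = 0.016) with VLDL-sized particles. With CHYL-sized particles *Rasa1* fell too (-0.25, adjusted p = 0.0036), while *Cbl* did not pass (0.15, adjusted p = 0.11). The counts of both lists depended on single libraries. Without VLDL-sized replicate 1, 0 phosphatase genes were higher and 3 lower after VLDL-sized particles. Without control replicate 2 or 3 or VLDL-sized replicate 2, and with library size only, 0 were higher and 4 lower. With DESeq2, 1 was higher and 4 were lower. After CHYL-sized particles 1 was lower without control replicate 1 or CHYL-sized replicate 3, and 2 were lower without control replicate 2. Of the feedback inhibitors, 0 were higher and 1 was lower without control replicate 1 or 2, for each particle, whereas with the replicate number as a block 3 were higher and 3 lower after VLDL-sized particles.

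Among 30 other immediate early genes, 26 were tested, and here too both directions occurred, with 7 higher and 4 lower after VLDL-sized (median log2 fold change 0.16) and 6 higher and 3 lower after CHYL-sized particles (median 0.06). *Maff*, a small MAF transcription factor, rose with VLDL-sized particles from between 2.14 and 2.74 cpm to between 6.47 and 6.71 cpm (log2 fold change 1.47, adjusted p = 1.8e-05). *Plk3*, a stress-induced kinase, rose as well (1.18, adjusted p = 5.0e-05). With CHYL-sized particles *Maff* (1.15, adjusted p = 1.9e-04) and *Plk3* (0.90, adjusted p = 6.0e-04) also rose. *Fosl1*, which encodes the AP-1 subunit FRA-1, was between 0 and 0.0868 cpm in control cells, against 2.06 to 3.14 cpm with VLDL-sized particles. It exceeded 10 counts only in treated libraries and so entered the test through the group difference itself. Its call is therefore not taken as support, although *Fosl1* is among the genes counted as higher for each particle. With all 3 libraries of replicate 3 left out, the counts of this list were 12 higher and 5 lower after VLDL-sized and 10 higher and 5 lower after CHYL-sized particles, and with the replicate block they were 12 higher and 6 lower, and 10 higher and 5 lower. Of 18 genes of the ERK cascade, 4 passed, each of them higher, after both VLDL-sized (median -0.02) and CHYL-sized particles (median 0.03), beside 17.8% and 12.7% of all genes called higher. One direction was not kept in every setting, since with the replicate block 6 were higher and 1 lower after each particle, while scaling by library size alone gave 4 higher and 5 lower after VLDL-sized particles. *Sos1*, which loads RAS with GTP, rose with VLDL-sized (log2 fold change 0.49, adjusted p = 5.0e-04) and CHYL-sized particles (0.36, adjusted p = 0.0050). *Ksr1*, a scaffold of the cascade, was between 0.0843 and 0.294 cpm in control cells, against 0.913 to 1.32 cpm with VLDL-sized particles. Like *Fosl1*, it exceeded 10 counts only in treated libraries, and its call is not taken as support either.

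Of 15 genes of the p38 and JNK cascades, 4 were higher and 4 lower after both VLDL-sized (median log2 fold change 0.11) and CHYL-sized particles (median 0.06). *Mapk9*, which encodes JNK2, rose (0.60, adjusted p = 8.6e-06), whereas *Map3k5* (-1.05, adjusted p = 2.5e-05), which encodes the stress kinase ASK1, and *Map2k6* (-1.56, adjusted p = 3.2e-05), a kinase of p38, fell with VLDL-sized particles. The directions were the same with CHYL-sized particles for *Mapk9* (0.50, adjusted p = 5.2e-05), *Map3k5* (-0.79, adjusted p = 2.1e-04) and *Map2k6* (-1.58, adjusted p = 5.1e-05). Of 13 transcription factors fed by these kinases, 1 was higher and 4 were lower after VLDL-sized (median -0.13) and 1 was higher and 5 were lower after CHYL-sized particles (median -0.09). *Etv5*, an ETS factor, had 123, 125 and 103 cpm in control cells, 53.8, 58.5 and 42.5 cpm after VLDL-sized and 74.4, 74.7 and 58.5 cpm after CHYL-sized particles, and fell with both VLDL-sized (-1.19, adjusted p = 5.8e-05) and CHYL-sized particles (-0.76, adjusted p = 0.0014). *Elk3* (-0.85, adjusted p = 1.2e-04) and *Srf* (-0.72, adjusted p = 2.5e-04), the factor that binds CArG boxes, fell with VLDL-sized particles. With CHYL-sized particles *Elk3* (-0.70, adjusted p = 6.3e-04) and *Srf* (-0.32, adjusted p = 0.032) fell as well. After CHYL-sized particles the counts were 1 higher and 2 lower without control replicate 1 or 2 or CHYL-sized replicate 1 or 3 for these factors, and 2 higher and 2 lower without control replicate 1 or 2 or CHYL-sized replicate 3 for the p38 and JNK cascades. The median over all genes was -0.00028 after VLDL-sized and 0.0013 after CHYL-sized particles, and with library size only it moved to -0.0935 and -0.0788, a shift as large as several of the list medians.

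**Figure D4:**
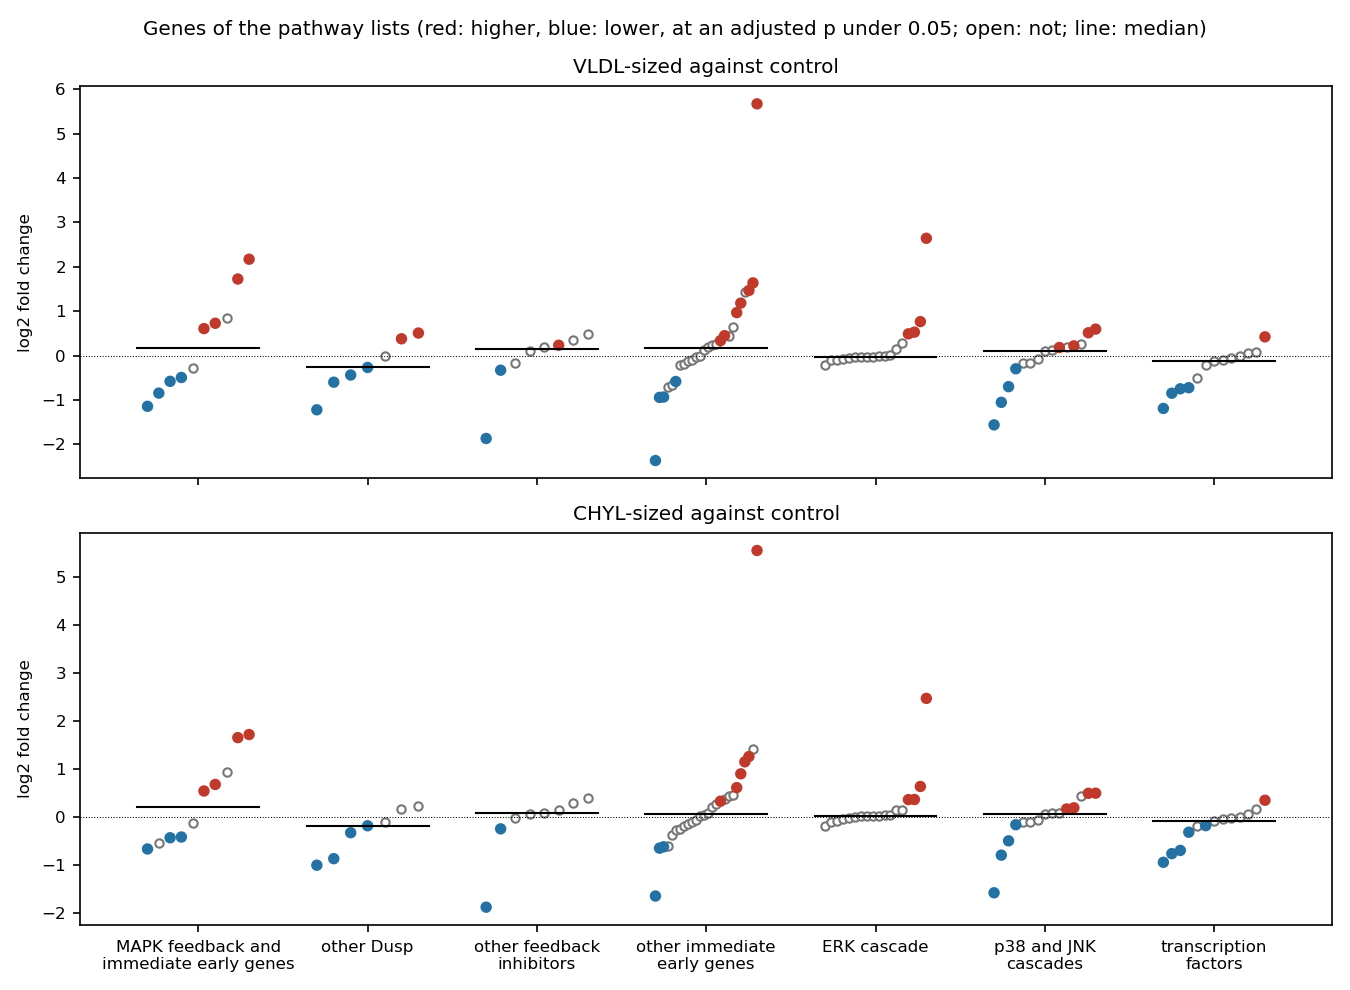
Log2 fold change (vertical axes, limma-voom) of every tested gene of the 10 genes and of the 6 pathway lists (horizontal axis), for VLDL-sized particles above and CHYL-sized particles below. Each point is a gene, filled in red (higher) or blue (lower) at an adjusted p under 0.05, and the line is the median of the list. Points past the test lie on both sides of 0 in most lists, and the topmost point is *Fosl1*, whose fitted value rests on control libraries at or near 0 counts.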

How the data were processed

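RNAseq was measured in 9 libraries of RAW 264.7 cells, 3 in each of 3 groups, with groups and replicate numbers taken from the sample labels. For every gene the authors deposited an estimated count, which need not be whole, obtained with Salmon 0.14.1 on the GENCODE M22 transcripts of GRCm38.p6 and summarized with tximport. According to the methods these counts were scaled for transcript length and library size, but among deposited values above 10, 58.3% were whole, and the table was therefore treated as unscaled. Reads that a gene shares with a paralog or an overlapping gene were split by the quantification and make such genes uncertain. Depth was 22393893 to 22856792 counts per library. Symbols were matched for 54346 of 54432 identifiers. Coordinates and transcript lengths came from GENCODE M21 on GRCm38.

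The test was limma-voom (limma 3.58.1, R 4.3.3, TMM factors from edgeR 4.0.16) on the 12637 genes that exceeded 10 counts in 3 or more libraries, with 1 model of all libraries and no replicate block, with Benjamini-Hochberg adjustment over all genes and a threshold of 0.05. The filter, TMM and limma follow the methods, which do not give the terms of the model. Alternatives were edgeR's quasi-likelihood test and DESeq2 1.42.0 on rounded counts, limma-trend (prior count 2), no scaling beyond library size, upper-quartile and RLE normalization, no filter, a limit of 50 counts, only the groups compared, a replicate block, each library left out and all 3 libraries of replicate 3 left out. The steps were tested on simulated data.

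Deviations from the group means correlated across genes between control and VLDL-sized libraries of the same number, at 0.14, 0.13 and 0.29 for replicates 1, 2 and 3. All were over 0.1, and by this limit the numbers paired the control and VLDL-sized libraries. The main fit did not use this pairing, and a replicate block was fitted as an alternative. The limit did not separate replicates 1 and 2, since control 1 and VLDL-sized 2 correlated at 0.12. Control 3 correlated at -0.13 and -0.22 with VLDL-sized 1 and 2. The pairing is a reading of the data, since neither the labels nor the methods say what a number marks. No 2 libraries agreed within counting noise, so none was treated as a repeat of another.

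The 10 genes and the lists were chosen with earlier results of these data known. Of each list, at most the 3 called genes with the smallest adjusted p for VLDL-sized particles were named. *Dusp8* and *Dusp9* were added as the called phosphatase genes of their list that rose. A gene that this rule selects is not reported here.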

Additional observations from a re-analysis of the deposited data

How the results depend on the processing

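Over the alternatives, 560 values of the 10 genes stayed on their side of the threshold, 27 lost and 10 gained a call, and 0 called values reversed. Values without a call could change sign, as for *Ier2* between the particles (-0.42 to 0.019). The count of the 10 genes called was 5 to 8 after VLDL-sized and 4 to 7 after CHYL-sized particles when 1 library was left out, with the lowest counts without control replicate 1 for VLDL-sized and without control replicate 1 or 2 or CHYL-sized replicate 1 or 3 for CHYL-sized particles. By the limit of 0.1, the numbers of the CHYL-sized libraries did not qualify as pairs (correlations of 0.12, 0.068 and 0.34 with control, and of 0.029, 0.12 and 0.36 with VLDL-sized). Replicate 3 had the highest value in both. Here too an unmatched pair passed the limit, control 1 with CHYL-sized 2 at 0.155. With the replicate block, 9 of the 10 genes were called for each particle and 6058 genes in all for VLDL-sized and 4949 in place of 3249 for CHYL-sized particles, where *Dusp6* (-0.51, adjusted p = 0.0013) and *Egr1* (0.98, adjusted p = 2.3e-04) gained a call. *Egr1* was the only one of the 10 genes whose VLDL-sized call changed with the block. Between the particles, the replicate block called 147 genes, 2 of them among the 10 (*Dusp1* at 0.51, adjusted p = 0.028, and *Dusp6* at -0.58, adjusted p = 0.033). Genes called between the particles were 24 with DESeq2, 257 with all 3 libraries of replicate 3 left out, 2 of them among the 10, and 0 to 1 when 1 library was left out. With library size only, 1507 genes were higher and 3312 lower after VLDL-sized particles (31.3% higher in place of 49.9%), 29.8% in place of 49.6% were higher after CHYL-sized particles, and the 10 genes kept their calls. The stricter filter removed *Dusp2*, which gave no value there. The causes of these changes were not tested. With 3 libraries a group, small changes of the lowest genes can go undetected. *Egr1*, at 16 to 64 counts in control, did not pass in the main fit. It passed with both particles with the replicate block or with all 3 libraries of replicate 3 left out.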
